A study of Homo sapiens with 9 samples.

Results

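Fatty acid synthesis and desaturation was described through 10 genes in ACHN cells treated with piericidin A. The 10 members are ACLY, ACACA, ACACB, FASN, SCD, ELOVL5, ELOVL6, FADS1, FADS2 and SREBF1. They were taken by gene name from the authors' filtered expression table, which holds 18859 genes; the rule used names and no measured value, but the list was drawn up with earlier results of these data known. All 10 were found and all 10 passed the filter on low values, at least 0.5 FPKM (fragments scaled by gene length and library size) in at least 3 libraries, as did 15541 genes in all. No member depended on 1 group to pass, since the lowest single value was 0.857 FPKM, for FADS2.

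ACHN is an established human renal cell carcinoma line that grows attached, here in MEM. The 9 libraries came in 3 groups of 3, all of this line: a DMSO group (0.1%), a group on 25 nM of piericidin A and a group on 50 nM of it. Piericidin A is a bacterial product that blocks complex I, the first enzyme of the mitochondrial respiratory chain, and the series asked how it acts on renal carcinoma cells. Whether piericidin A cells also received DMSO and how long the treatment lasted are not in the labels. The labels call the samples of a group duplicates and do not say that they were separate cultures, so p-values measure the spread between these samples.

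Fatty acid synthesis starts from citrate, which ATP citrate lyase splits in the cytosol to give acetyl-CoA. Acetyl-CoA carboxylase turns this into malonyl-CoA, and fatty acid synthase builds palmitate from both, using NADPH. Elongases then add carbons and desaturases add double bonds, an oxygen-dependent step, and the SREBP-1 protein made from SREBF1 switches on many of these genes once it has been cut free from its precursor in the membrane. Renal carcinoma of the clear cell type is known for its lipid droplets.

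The 9 libraries held 24365472 to 29245674 fragments on genes of the filtered table, recovered from the deposited FPKM. All 6 renal epithelial markers were above the filter, with a summed level of 280 to 287 FPKM in DMSO libraries, 276 to 311 FPKM at 25 nM and 274 to 280 FPKM at 50 nM. Within this list 2 markers rose and 1 fell at each dose: CA12, a carbonic anhydrase, fell (log2 fold changes of -0.99 and -1.39), KRT8 and EPCAM rose at 25 nM (0.22 and 0.29) and PAX8 and PAX2 rose at 50 nM (0.30 and 0.36). The part of these changes in the members' results was not tested. Of 5 adipocyte, 3 hepatocyte, 3 endothelial and 3 leukocyte markers, 3, 2, 3 and 1 were found in the table, none passed the filter, and no library had a summed level above 0.124 FPKM for any of these 4 lists. In bulk samples, fewer cells of a type and less RNA per cell cannot be told apart.

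In DMSO cells the member with the highest level was ACLY, at 137 ± 2.96 FPKM, followed by ELOVL5 at 50.6 ± 0.151 FPKM and SCD at 19.1 ± 0.329 FPKM (mean ± SD, n = 3 libraries). FASN, at 12.5 ± 0.292 FPKM, FADS1, at 8.82 ± 0.266 FPKM, and SREBF1, at 7.48 ± 0.137 FPKM, came next. ACACA, at 4.86 ± 0.0546 FPKM, ELOVL6, at 3.43 ± 0.0890 FPKM, ACACB, at 2.12 ± 0.0394 FPKM, and FADS2, at 1.32 ± 0.115 FPKM, were lowest. No 2 neighbours in this order overlapped in their DMSO libraries. At 25 nM FASN stood above SCD, and FADS1 and SREBF1 overlapped. At 50 nM SCD had moved to the sixth place, where its libraries overlapped those of FADS1, and ELOVL6 overlapped ACACB. Fragments per library behind these levels ranged between 257 for FADS2 and 20893 for ACLY, and counting error is relatively largest where fragments are fewest.

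**Figure D1:**
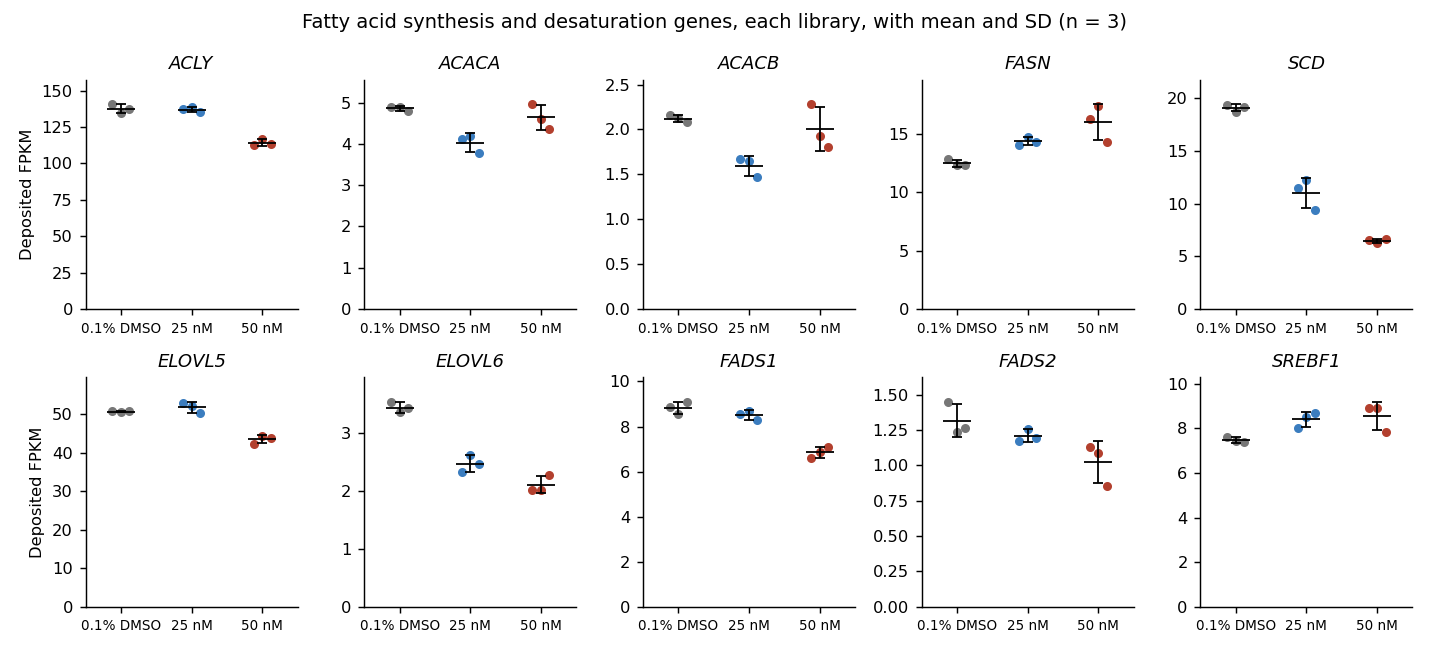
FPKM of each of the 10 members (vertical axes, each starting at 0) in the 9 libraries, by group from DMSO through 25 nM to 50 nM piericidin A; points are libraries and bars are the mean with its SD (n = 3). SCD steps down at each dose, to 57.8% of the DMSO mean at 25 nM and 34.0% at 50 nM, while FASN steps up and ACACA and ACACB are lowest at 25 nM.

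At 25 nM, 4 members fell and 2 rose relative to DMSO in the limma fit over all 15541 genes (Benjamini-Hochberg adjusted p under 0.05). SCD, ELOVL6, ACACB and ACACA fell, FASN and SREBF1 rose, and ACLY, ELOVL5, FADS1 and FADS2 did not pass. With the length trend removed 2 members fell and 3 rose, and with no filter or with equal fragment totals 4 fell and none rose. Of all genes tested, 52% were called in this comparison, 26.3% higher and 25.8% lower, so 6 of 10 members called is near the background. Libraries did not overlap DMSO for 6 members, 2 above and 4 below, against 62.6% of all genes, 31.5% above and 31.1% below. The median log2 fold change was -0.08 over the members and 0.02 over all genes tested, and the median size of change was 0.18 against 0.30. All members but ELOVL5 are longer than 5000 bases. Protein-coding genes of 5000 to 10000 bases had a median of -0.10 in this comparison, and longer ones -0.27. Log2 fold changes here and below are on the log2(FPKM + 0.1) scale.

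At 50 nM, 6 members fell and 2 rose relative to DMSO. SCD and ELOVL6 fell here too, together with ACLY, ELOVL5, FADS1 and FADS2, and FASN and SREBF1 rose, while ACACA and ACACB did not pass. The background was 60.7% of genes called, 29.2% higher and 31.5% lower. The 50 nM libraries did not overlap DMSO for 8 members, 2 above and 6 below, against 70.4% of all genes, 33.9% above and 36.5% below. The median log2 fold change was -0.24 over the members and 0.0049 over all genes tested, and the median size of change was 0.30 against 0.36. Protein-coding genes of 5000 to 10000 bases had a median of -0.16 in this comparison, and longer ones -0.27. Both doses were compared with the same 3 DMSO libraries, so the 2 comparisons are not independent.

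Between the doses, 5 members fell and 2 rose at 50 nM relative to 25 nM, against a background of 33.5% of genes called, 14.7% higher and 18.8% lower. ACLY, SCD, ELOVL5, ELOVL6 and FADS1 fell, and ACACA and ACACB rose. The libraries of the 2 doses did not overlap for 8 members, 2 above and 6 below at 50 nM, against 45.4% of all genes, 21% above and 24.4% below. The median log2 fold change was -0.22 over the members and -0.01 over all genes tested. It was -0.05 over protein-coding genes of 5000 to 10000 bases and 0.02 over longer ones. The count fell to 4 members with no filter, with only the 6 libraries of the 2 doses in the fit, and without any 1 DMSO library, the third 25 nM library or the first or the second 50 nM library; it was 8 without the third 50 nM library. ACLY, SCD, ELOVL5 and FADS1 were called under all 19 alternative settings, and the calls of ACACA, ACACB and ELOVL6 held under 10, 9 and 5 of them.

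**Figure D2:**
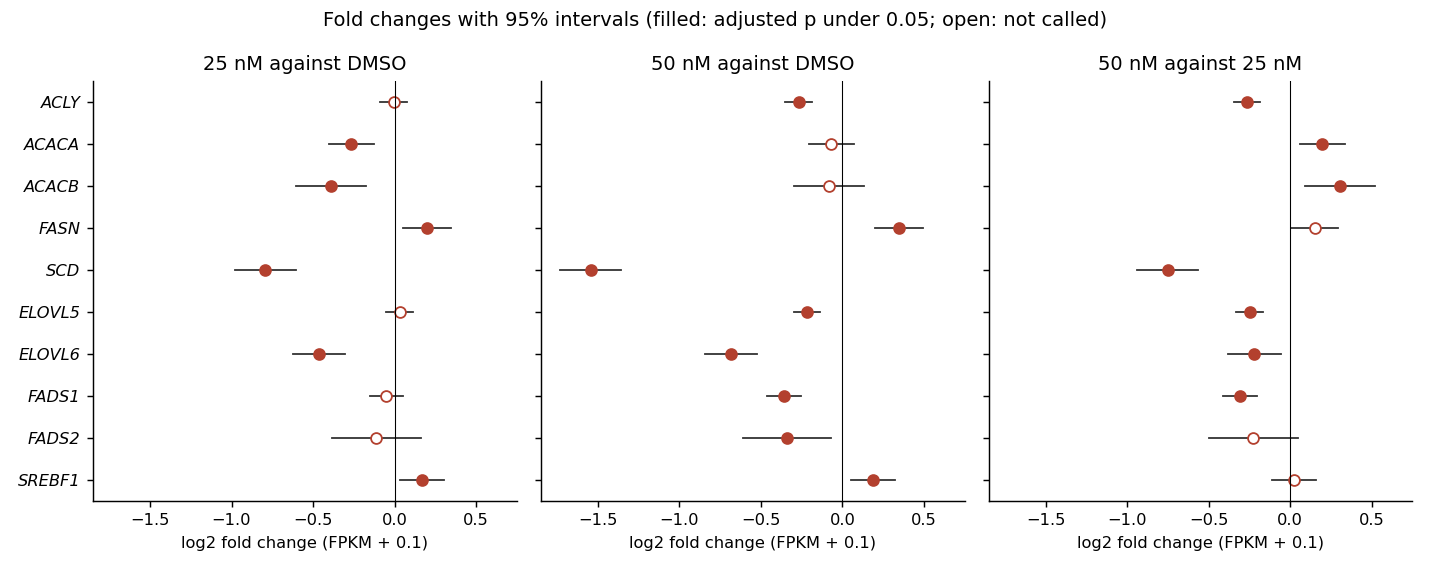
Log2 fold change of each member with its 95% confidence interval (horizontal axis, log2(FPKM + 0.1) scale) in 3 panels: 25 nM against DMSO, 50 nM against DMSO and 50 nM against 25 nM; filled points passed an adjusted p of 0.05 in limma and open points did not. SCD lies farthest from 0 in each panel, at -0.79, -1.54 and -0.75.

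Gene length moved with the fold changes across the whole table, and this bears on the members, whose gene lengths range from 3813 bases for ELOVL5 to 14505 bases for ACACB. Over 11722 protein-coding genes the median log2 fold change at 25 nM was 0.25 for the 1691 genes under 2500 bases, 0.06 for the 4090 genes of 2500 to 5000 bases, -0.10 for the 4655 genes of 5000 to 10000 bases and -0.27 for the 1286 longer ones. At 50 nM the 4 medians were 0.14, -0.05, -0.16 and -0.27. Between the doses the order was the other way, at -0.11, -0.10, -0.05 and 0.02. A fit with this trend removed by lowess (span 0.3, 14604 genes with a length) is given here and below for the members whose call or direction it changed or whose value it moved by more than 1.5 times. It put FASN at 0.38 at 25 nM and 0.53 at 50 nM, against 0.20 and 0.35 as deposited, and SREBF1 at 0.32 and 0.35, against 0.17 and 0.19. ACLY at 50 nM was then at -0.17, against -0.27 as deposited. ACLY, ELOVL5 and FADS2 changed sign at 25 nM without a call (0.04, -0.0041 and 0.13), as did ACACB at 50 nM (0.18). The part of length in any single gene's change was not tested.

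**Figure D3:**
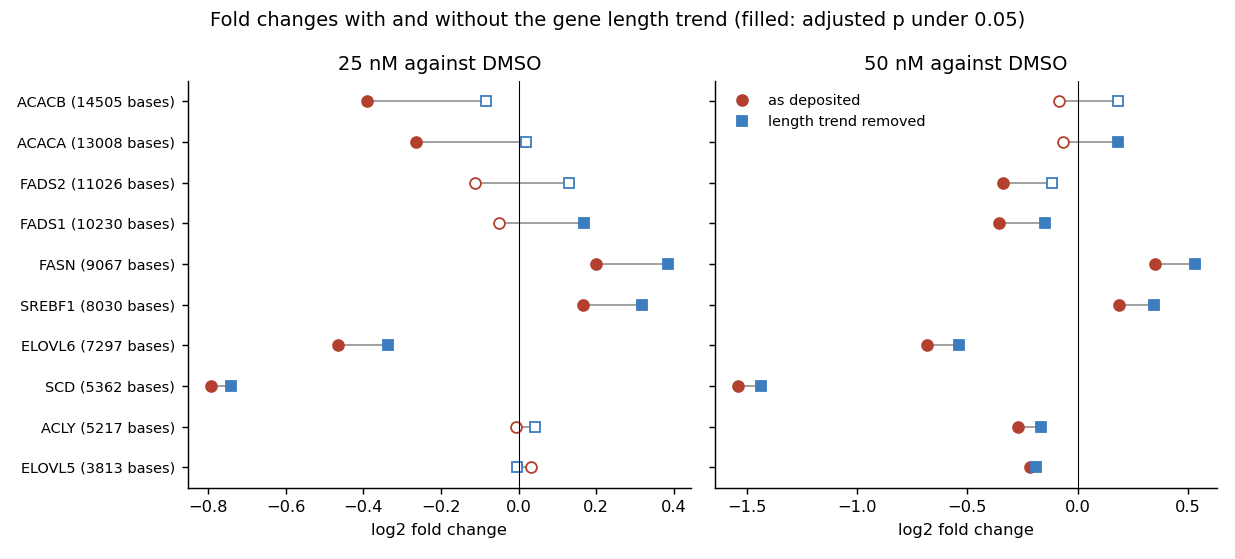
Log2 fold change of each member (horizontal axis) at 25 nM (left) and at 50 nM (right) against DMSO, from the deposited values (circles) and with the gene length trend removed (squares); members run down the page from the longest gene to the shortest, and filled symbols passed an adjusted p of 0.05 in limma. Removing the trend moved ACACA at 25 nM from a called -0.27 to 0.02, which was not called, and moved SCD from -0.79 to -0.74, called both times.

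ACLY (ENSG00000131473, chr17:41866908-41930542, minus strand, hg38) encodes ATP citrate lyase, the source of cytosolic acetyl-CoA. Its level was 141, 135 and 137 FPKM in the DMSO libraries, 137, 138 and 135 FPKM at 25 nM, and 113, 117 and 113 FPKM at 50 nM. All 50 nM libraries lay below all DMSO and all 25 nM libraries, and the 25 nM libraries overlapped DMSO. The log2 fold change at 50 nM was -0.27 (SE 0.04, limma adjusted p = 1.92e-04), and at 25 nM it was -0.0057 with a 95% interval of -0.09 to 0.08 (adjusted p = 0.907). Between the doses it was -0.26 (adjusted p = 0.00101).

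ACACA (ENSG00000278540, chr17:37084988-37406818, minus strand) and ACACB (ENSG00000076555, chr12:109116595-109268226, plus strand) encode the 2 acetyl-CoA carboxylases. The ACACA enzyme is cytosolic and feeds synthesis, and the ACACB enzyme sits at the mitochondrion, where its malonyl-CoA restrains fatty acid import. ACACA measured 4.90, 4.88 and 4.80 FPKM in DMSO libraries, 4.12, 4.19 and 3.78 FPKM at 25 nM, and 4.96, 4.60 and 4.36 FPKM at 50 nM. Its 25 nM libraries were below every other library, and the 50 nM libraries spread across the DMSO range. The log2 fold change at 25 nM was -0.27 (SE 0.06, adjusted p = 0.00590) and at 50 nM -0.07 (95% interval -0.21 to 0.07, adjusted p = 0.368).

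ACACB followed the same order of groups at a lower level. It had 2.16, 2.12 and 2.08 FPKM in DMSO libraries, 1.67, 1.65 and 1.47 FPKM at 25 nM, and 2.28, 1.93 and 1.81 FPKM at 50 nM. Again the 25 nM libraries lay below all others, and the 50 nM libraries overlapped DMSO. The log2 fold change at 25 nM was -0.39 (SE 0.10, adjusted p = 0.00738) and at 50 nM -0.08 (95% interval -0.30 to 0.13, adjusted p = 0.473). At 50 nM relative to 25 nM both genes rose, ACACA by 0.20 (adjusted p = 0.0354) and ACACB by 0.31 (adjusted p = 0.0343). With the length trend removed neither was called at 25 nM, where ACACA was at 0.02 (adjusted p = 0.797) and ACACB at -0.09 (adjusted p = 0.417), and at 50 nM ACACA was called higher at 0.18 (adjusted p = 0.0125).

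FASN (ENSG00000169710, chr17:82078333-82098332, minus strand) encodes fatty acid synthase, the multifunctional enzyme that makes palmitate. Its libraries read 12.8, 12.3 and 12.3 FPKM in DMSO, 14.0, 14.7 and 14.3 FPKM at 25 nM, and 16.3, 17.3 and 14.3 FPKM at 50 nM. Every treated library was above every DMSO library, and the third 50 nM library fell within the 25 nM range. FASN rose at 25 nM by 0.20 on the log2 scale (SE 0.06, adjusted p = 0.0280) and at 50 nM by 0.35 (SE 0.06, adjusted p = 0.00136). Between the doses the difference was 0.15 (95% interval 0.0029 to 0.30, adjusted p = 0.107), and it was called under 3 of 19 alternatives: equal fragment totals, upper quartile scaling and without the third 50 nM library. The call at 25 nM held under 14 of 19 alternatives and was lost with no filter, with equal fragment totals, and without the second or the third DMSO library or the second 25 nM library. The call at 50 nM held under all 19.

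SCD (ENSG00000099194, chr10:100347124-100364834, plus strand) encodes stearoyl-CoA desaturase, which puts the first double bond into stearate and palmitate to give oleate and palmitoleate. It had 19.4, 18.7 and 19.2 FPKM in the DMSO libraries, 11.5, 12.2 and 9.43 FPKM at 25 nM, and 6.59, 6.26 and 6.63 FPKM at 50 nM. The 3 groups did not overlap at any point, with DMSO highest and 50 nM lowest. SCD fell in each comparison, with a log2 fold change of -0.79 at 25 nM (SE 0.08, adjusted p = 8.67e-05), -1.54 at 50 nM (SE 0.08, adjusted p = 1.45e-06) and -0.75 between the doses (SE 0.08, adjusted p = 4.63e-04). Its mean level at 25 nM was 57.8% of that in DMSO cells and at 50 nM 34.0%. Counted from the lowest log2 fold change among 15541 genes, SCD ranked 729 at 25 nM and 76 at 50 nM. All 3 calls held under all 19 alternatives. GENCODE 29 lists a processed pseudogene, SCDP1, and no source used here says how reads matching both were assigned.

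The sequences before the start sites of 4 members are shown because their mRNAs moved apart: SCD and ELOVL6 fell at both doses, ELOVL5 fell at 50 nM and SREBF1 rose at both. They are RefSeq windows on GRCh38.p14, 250 bases before to 50 after a RefSeq start, and capitals mark CCAAT boxes (CCAAT or ATTGG), the E-box CACGTG and GC boxes (GGGCGG or CCGCCC). The SCD window is chr10:100346983-100347282 on the plus strand, and those of ELOVL6 (chr4:110198566-110198865), ELOVL5 (chr6:53348901-53349200) and SREBF1 (chr17:17836937-17837236) are on the minus strand.
SCD: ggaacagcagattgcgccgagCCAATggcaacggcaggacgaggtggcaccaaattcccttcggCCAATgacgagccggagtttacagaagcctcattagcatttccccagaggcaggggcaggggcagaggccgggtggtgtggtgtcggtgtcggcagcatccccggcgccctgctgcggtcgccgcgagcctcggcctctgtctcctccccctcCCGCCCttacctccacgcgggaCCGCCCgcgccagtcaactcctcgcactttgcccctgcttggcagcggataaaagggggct
ELOVL6: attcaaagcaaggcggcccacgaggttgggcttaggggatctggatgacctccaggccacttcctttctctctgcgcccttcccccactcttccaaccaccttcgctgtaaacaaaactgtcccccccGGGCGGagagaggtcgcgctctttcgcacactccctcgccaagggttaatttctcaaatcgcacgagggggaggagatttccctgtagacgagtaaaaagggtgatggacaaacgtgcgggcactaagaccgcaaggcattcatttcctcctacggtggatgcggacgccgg
ELOVL5: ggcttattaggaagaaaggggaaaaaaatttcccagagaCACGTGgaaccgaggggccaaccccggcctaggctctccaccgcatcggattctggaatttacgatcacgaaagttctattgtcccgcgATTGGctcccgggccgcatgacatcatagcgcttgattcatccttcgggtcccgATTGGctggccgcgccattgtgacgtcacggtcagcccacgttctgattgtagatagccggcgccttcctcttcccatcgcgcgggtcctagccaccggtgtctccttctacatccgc
SREBF1: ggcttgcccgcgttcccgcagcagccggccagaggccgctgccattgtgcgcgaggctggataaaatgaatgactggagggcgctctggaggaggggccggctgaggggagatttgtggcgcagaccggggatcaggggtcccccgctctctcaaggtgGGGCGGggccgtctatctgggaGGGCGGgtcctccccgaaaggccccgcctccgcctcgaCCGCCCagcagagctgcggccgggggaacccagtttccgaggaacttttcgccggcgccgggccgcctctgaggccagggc

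RefSeq windows were matched by symbol for 9 of the 10 members, 14 windows in all, and all but FASN had one. On both strands, the sterol regulatory element letters TCACNCCAC were in 0 of the 14 windows, against 1.13% of 35116 windows of the same length. At so low a share, 14 windows are too few to show a lack of the element. The E-box CACGTG, the core letters bound by USF1 and USF2 and by SREBP-1 as well, was in 1 window, that of ELOVL5, against 7.26% of all windows. CCAAT, the letters bound by NF-Y, was in 8 windows of 6 genes, against 34.6%, and the GC box GGGCGG, bound by SP1, was in 10 windows of 8 genes, against 45.0%. None of the 4 motifs contains another. A match describes the letters only and names no bound site, and 5 of the 9 members have a single window. The part of these letters in the mRNA changes was not tested. The ACLY windows overlap each other and hold the same CCAAT and GC boxes, which were counted in each. The FADS2 windows overlap as well, so the 14 windows are not independent.

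ELOVL6 (ENSG00000170522, chr4:110045846-110199199, minus strand) encodes the elongase that carries palmitate to stearate, the substrate of SCD. Its libraries stood at 3.53, 3.35 and 3.42 FPKM in DMSO, 2.32, 2.61 and 2.46 FPKM at 25 nM, and 2.01, 2.02 and 2.28 FPKM at 50 nM. No library of one group reached the range of another, and the groups went down from DMSO through 25 nM to 50 nM. The log2 fold change of ELOVL6 was -0.46 at 25 nM (SE 0.07, adjusted p = 6.36e-04) and -0.68 at 50 nM (SE 0.07, adjusted p = 4.37e-05), and both falls held under all 19 alternatives. The step between the doses was -0.22 (adjusted p = 0.0413), and with the length trend removed -0.20 and not called (adjusted p = 0.0514).

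ELOVL5 (ENSG00000012660, chr6:53267398-53349179, minus strand) encodes an elongase of polyunsaturated fatty acids. The DMSO libraries read 50.7, 50.4 and 50.7 FPKM, the 25 nM libraries 52.8, 52.2 and 50.2 FPKM, and the 50 nM libraries 42.3, 44.4 and 43.9 FPKM. The 25 nM libraries overlapped DMSO, and all 50 nM libraries were lower than both. The log2 fold change of ELOVL5 was -0.22 at 50 nM (SE 0.04, adjusted p = 6.97e-04) and -0.25 between the doses (adjusted p = 0.00131). At 25 nM its log2 fold change was 0.03 (95% interval -0.05 to 0.11, adjusted p = 0.494).

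FADS1 (ENSG00000149485, chr11:61799625-61829318, minus strand) and FADS2 (ENSG00000134824, chr11:61792980-61867354, plus strand) encode the delta-5 and delta-6 desaturases of polyunsaturated fatty acids. The 2 genes lie on opposite strands and share 490 exonic bases in GENCODE 29, or 4.79% of FADS1 and 4.44% of FADS2. FADS2 shares 49 more with FEN1 on its own strand. No source used here says whether the libraries kept strand, so reads in these bases cannot be assigned to 1 gene.

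FADS1 levels were 8.85, 8.54 and 9.07 FPKM in DMSO libraries, 8.55, 8.69 and 8.29 FPKM at 25 nM, and 6.61, 6.86 and 7.11 FPKM at 50 nM. Only the 50 nM libraries stood apart, below both other groups. The log2 fold change of FADS1 was -0.36 at 50 nM (SE 0.05, adjusted p = 1.40e-04) and -0.31 between the doses (adjusted p = 0.00142). At 25 nM the log2 fold change was -0.05 (adjusted p = 0.373); with the length trend removed it was 0.17 and called (adjusted p = 0.0162), and the fall at 50 nM was then -0.15 (adjusted p = 0.0256).

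FADS2, the member with the lowest level, had 1.45, 1.24 and 1.26 FPKM in DMSO libraries, 1.17, 1.26 and 1.19 FPKM at 25 nM, and 1.13, 1.09 and 0.857 FPKM at 50 nM. The 50 nM libraries lay below all others and the 25 nM libraries overlapped DMSO. Its log2 fold change at 50 nM was -0.34 (SE 0.12, adjusted p = 0.0347), and its differences at 25 nM, -0.11 (adjusted p = 0.461), and between the doses, -0.23 (adjusted p = 0.176), did not pass. The 50 nM call held under 10 of 19 alternatives; it was lost with equal fragment totals (adjusted p = 0.0834), upper quartile scaling (0.0693), the length trend removed (0.444), no filter (0.0574) or only the 2 groups in the fit (0.0564). It was also lost without any 1 DMSO library or the third 50 nM library, with log2 fold changes of -0.38 to -0.23.

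SREBF1 (ENSG00000072310, chr17:17810399-17837002, minus strand) encodes SREBP-1, the transcription factor of lipid synthesis. It measured 7.63, 7.42 and 7.37 FPKM in DMSO libraries, 8.03, 8.50 and 8.69 FPKM at 25 nM, and 8.90, 8.94 and 7.83 FPKM at 50 nM. Each treated library was above each DMSO library, by the smallest margin for the third 50 nM library, and the 2 doses overlapped. SREBF1 rose at 25 nM by 0.17 (SE 0.06, adjusted p = 0.0399) and at 50 nM by 0.19 (SE 0.06, adjusted p = 0.0204), with 0.02 between the doses (95% interval -0.11 to 0.16, adjusted p = 0.798). The call at 25 nM held under 10 of 19 alternatives, and was lost with no filter, equal fragment totals, plain eBayes, the replicate block and without any 1 of the 3 DMSO libraries or the second or the third 25 nM library. The call at 50 nM held under 15, and was lost without the second or the third DMSO library or the first or the second 50 nM library. In GENCODE 29 the gene shares 556 exonic bases, 6.92% of its own, with RAI1 on the other strand, which averaged 7.40 FPKM in DMSO libraries.

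Ratios of 2 members within the same library do not depend on how libraries are scaled. The ratio of SCD to FASN in FPKM was 1.51, 1.52 and 1.56 in the DMSO libraries, 0.822, 0.829 and 0.660 at 25 nM, and 0.405, 0.361 and 0.463 at 50 nM. It went down without overlap at each dose, and its mean ± SD was 1.53 ± 0.0232 in the DMSO group, 0.770 ± 0.0959 in the 25 nM group and 0.410 ± 0.0511 in the 50 nM group (n = 3 each). The exact two-sided permutation p was 0.1 for each pair of groups, which is the smallest that 20 splits allow, and 0.18 after adjustment over the 9 ratio comparisons. The ratio of ACACB to ACACA was 0.396 ± 0.00930 at 25 nM, against 0.436 ± 0.00361 in DMSO cells, without overlap (exact p = 0.1). At 50 nM it was 0.431 ± 0.0251, against the same 0.436 in DMSO cells (exact p = 0.8). The ratio of FADS2 to FADS1 was 0.149 ± 0.0127 in DMSO, 0.142 ± 0.00433 at 25 nM and 0.150 ± 0.0261 at 50 nM, with all groups overlapping (exact p between 0.5 and 1). These 2 genes share 490 exonic bases, strandedness is unknown, and FADS1 has the higher level (8.82 against 1.32 FPKM in DMSO). The part of FADS1 reads in the FADS2 level and in this ratio was not tested. No ratio comparison could pass 0.05 with 3 libraries a group.

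**Figure D4:**
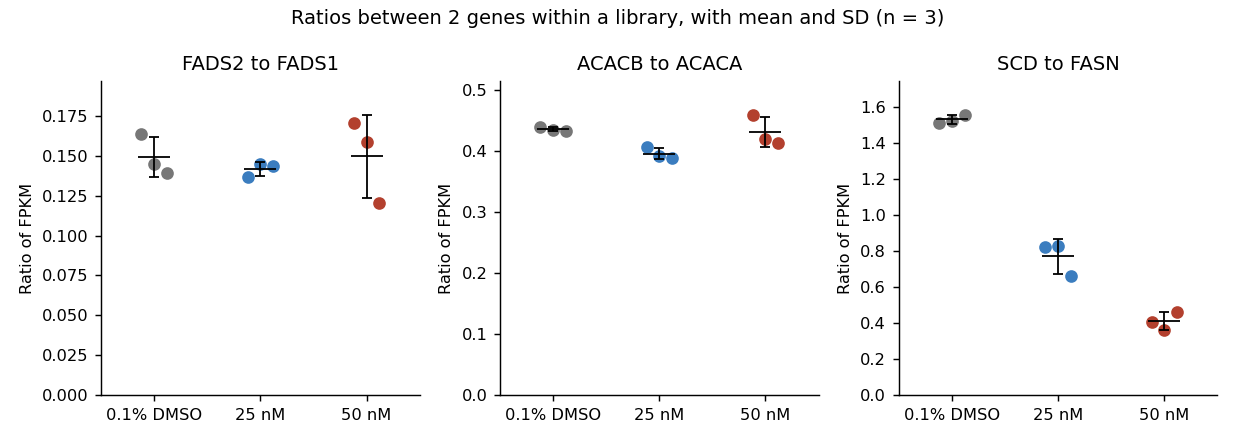
Ratios of the FPKM of 2 genes within each library (vertical axes from 0), by group from DMSO through 25 nM to 50 nM; points are libraries and bars are the mean with its SD (n = 3). SCD to FASN goes down from group to group without overlap, ACACB to ACACA is lower at 25 nM and FADS2 to FADS1 overlaps throughout.

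The genes around the members were described by 10 lists of pathway genes. The background for the counts of every list is the share of all genes tested that were called. It was 52% at 25 nM, 26.3% higher and 25.8% lower, and 60.7% at 50 nM, 29.2% higher and 31.5% lower. No list was tested against it. For acetyl-CoA and NADPH supply, 5 of 8 genes rose and none fell at 25 nM, a number called near the background. At 50 nM 1 rose and 2 fell. ME1, malic enzyme, was 0.10 higher at 25 nM (adjusted p = 0.0463) and lower at 50 nM (-0.10, adjusted p = 0.0482), calls that held under 4 and 7 of 19 alternatives. MTHFD1, a folate enzyme, fell at 50 nM (-0.27, adjusted p = 7.07e-04) and was at -1.2e-04 at 25 nM. With the length trend removed the MTHFD1 call at 50 nM was lost (-0.08, adjusted p = 0.235), and at 25 nM MTHFD1 was called higher (0.19, adjusted p = 0.0168).

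Of 13 tested genes for other elongases, desaturases and the elongation cycle, 5 rose and 3 fell at 25 nM, and 3 rose and 4 fell at 50 nM. SCD5, the second stearoyl-CoA desaturase of human cells, averaged 7.98 FPKM in DMSO, 6.49 FPKM at 25 nM and 5.70 FPKM at 50 nM, and fell, with log2 fold changes of -0.29 (adjusted p = 7.23e-04) and -0.48 (adjusted p = 2.80e-05). Like SCD, SCD5 had its lowest mean at 50 nM and its highest in DMSO. ELOVL2, which lengthens long polyunsaturated chains, fell, with log2 fold changes of -0.24 (adjusted p = 0.00911) and -0.55 (adjusted p = 5.82e-05). ELOVL7 fell, with log2 fold changes of -0.32 (adjusted p = 0.00140) and -0.52 (adjusted p = 6.40e-05). TECR, which catalyses the last step of elongation, rose, with a log2 fold change of 1.2 at 25 nM (adjusted p = 1.38e-05) and 0.77 at 50 nM (adjusted p = 7.56e-05). TECR shares 211 exonic bases on the other strand with DNAJB1, a heat-inducible chaperone gene that averaged 98.0 FPKM over the 9 libraries, and with strandedness unknown the reads of the 2 genes cannot be told apart there.

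Of 6 SREBP processing genes, 4 fell and 1 rose at each dose, where 25.8% of all genes tested fell at 25 nM and 31.5% at 50 nM. Their median log2 fold changes were -0.22 and -0.38, against 0.02 and 0.0049 over all genes. INSIG2, which holds the SREBP precursor in the endoplasmic reticulum, averaged 33.6 ± 0.840 FPKM in DMSO, 21.5 ± 0.715 FPKM at 25 nM and 13.2 ± 0.0825 FPKM at 50 nM. It fell, with log2 fold changes of -0.64 (adjusted p = 4.95e-06) and -1.35 (adjusted p = 1.14e-07). INSIG1, which has the same role, rose by 0.44 (adjusted p = 1.15e-04) and 0.30 (adjusted p = 6.81e-04). SREBF2, which encodes the sterol-side factor SREBP-2, fell, with log2 fold changes of -0.33 (adjusted p = 1.17e-04) and -0.43 (adjusted p = 1.36e-05), the direction opposite to that of SREBF1. MBTPS2, a protease that releases SREBPs and shares 12.2% of its exonic bases with YY2 on its own strand, fell at 50 nM (-0.48, adjusted p = 3.08e-04), and its call at 25 nM (-0.19, adjusted p = 0.0499) held under 5 of 19 alternatives. With the length trend removed SREBF2 was at -0.20 and -0.29, called both times. MBTPS2 was then at -0.0052 at 25 nM, not called, and at -0.31 at 50 nM, called. INSIG2, at -0.67 and -1.31, and INSIG1, at 0.40 and 0.32, moved less and kept their calls.

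Among 8 tested lipogenic regulators, 4 rose and 1 fell at 25 nM and 3 rose and 2 fell at 50 nM. USF1 and USF2, E-box factors that act on FASN, rose at both doses, USF1 by 0.41 (adjusted p = 2.58e-04) and 0.59 (adjusted p = 1.84e-05) and USF2 by 0.39 (adjusted p = 0.00142) and 0.42 (adjusted p = 7.32e-04). NR1H3, the oxysterol receptor LXR-alpha, a known activator of SREBF1, rose by 0.37 (adjusted p = 5.20e-04) and 0.51 (adjusted p = 5.56e-05). NFYA, a subunit of the CCAAT-binding NF-Y, fell, with log2 fold changes of -0.35 (adjusted p = 9.38e-04) and -0.32 (adjusted p = 0.00105). MLXIPL, which encodes the carbohydrate-responsive factor ChREBP, did not pass the filter.

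Sterol genes moved both ways: 4 of 6 rose and 1 fell at 25 nM, and 2 rose and 1 fell at 50 nM. IDI1, an isomerase of sterol synthesis, rose by 0.64 (adjusted p = 6.15e-04) and 0.39 (adjusted p = 0.00712).

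Acyl-CoA synthetases, which activate fatty acids for use, were represented by 3 tested genes, of which 1 rose and 2 fell at 25 nM and all 3 fell at 50 nM. ACSL1 fell, with log2 fold changes of -0.65 (adjusted p = 8.73e-06) and -0.68 (adjusted p = 3.06e-06), and ACSL4 with -0.31 (adjusted p = 0.00770) and -0.51 (adjusted p = 3.61e-04). ACSL3 was 0.14 higher at 25 nM (adjusted p = 0.0362) and lower at 50 nM (-0.16, adjusted p = 0.0153), calls that held under 9 and 14 of 19 alternatives. Of 12 tested genes of glycerolipid synthesis and lipid droplets, 5 rose and 3 fell at 25 nM and 5 rose and 4 fell at 50 nM.

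PLIN2, which coats lipid droplets, averaged 93.9 ± 0.883 FPKM in DMSO, 55.1 ± 0.505 FPKM at 25 nM and 31.3 ± 3.30 FPKM at 50 nM. It fell, with log2 fold changes of -0.77 (adjusted p = 3.49e-05) and -1.59 (adjusted p = 4.85e-07). LPIN2, a phosphatidate phosphatase on the way to triglyceride, fell, with log2 fold changes of -0.89 (adjusted p = 6.85e-06) and -0.97 (adjusted p = 1.85e-06), and its relative LPIN3 rose by 0.34 (adjusted p = 0.00179) and 1.06 (adjusted p = 2.11e-06).

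AMPK is a kinase that phosphorylates and inhibits acetyl-CoA carboxylase. Of its 6 tested subunits, 4 fell at 25 nM and 3 at 50 nM, and none rose in the fit on values as deposited. Of all genes tested, 52% were called at 25 nM, 25.8% lower, and 60.7% at 50 nM, 31.5% lower. PRKAG2, a regulatory subunit, fell, with log2 fold changes of -0.59 (adjusted p = 4.24e-06) and -0.46 (adjusted p = 6.02e-06), and PRKAA1, a catalytic subunit, with -0.26 (adjusted p = 0.0130) and -0.44 (adjusted p = 5.66e-04). PRKAG1 was at -0.13 at 50 nM (adjusted p = 0.0493), a call that held under 5 of 19 alternatives, and PRKAB1 passed at neither dose, with 0.03 and 0.06. With the length trend removed PRKAB1 was called higher at 50 nM (0.18, limma adjusted p = 0.00873) and PRKAG1 higher at 25 nM (0.13, adjusted p = 0.0490). These genes were called under 3 and 2 of 19 alternatives at those doses. In the carnitine shuttle, which malonyl-CoA restrains, 2 of 3 tested genes fell and 1 rose at each dose. CPT1A fell, with log2 fold changes of -0.22 (adjusted p = 0.00211) and -0.14 (adjusted p = 0.0178), CPT2 with -0.42 (adjusted p = 0.0196) and -0.50 (adjusted p = 0.00780), and the carrier SLC25A20 rose by 0.45 (adjusted p = 0.00302) and 0.28 (adjusted p = 0.0246). The calls of CPT1A and SLC25A20 at 50 nM held under 13 and 14 of 19 alternatives, and that of CPT2 at 25 nM under 16. With the length trend removed CPT1A was at -0.01 (adjusted p = 0.852) and SLC25A20 at 0.16 (adjusted p = 0.113) at 50 nM.

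Mitochondrial fatty acid synthesis, a separate pathway that supplies lipoic acid, had 3 of 9 genes higher and 2 lower at 25 nM, and 3 higher and 3 lower at 50 nM. ACSF3, which makes mitochondrial malonyl-CoA, rose by 0.43 (adjusted p = 0.00135) and 0.67 (adjusted p = 7.25e-05). OXSM, its condensing enzyme, fell, with a log2 fold change of -0.51 at both doses (adjusted p = 0.00281 and 0.00214), and CBR4, a subunit of its reductase, with -0.21 (adjusted p = 0.0176) and -0.34 (adjusted p = 0.00115). The CBR4 call at 25 nM held under 16 of 19 alternatives. OXSM shares 536 exonic bases, 21.6% of its own, with NGLY1 on the other strand.

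**Figure D5:**
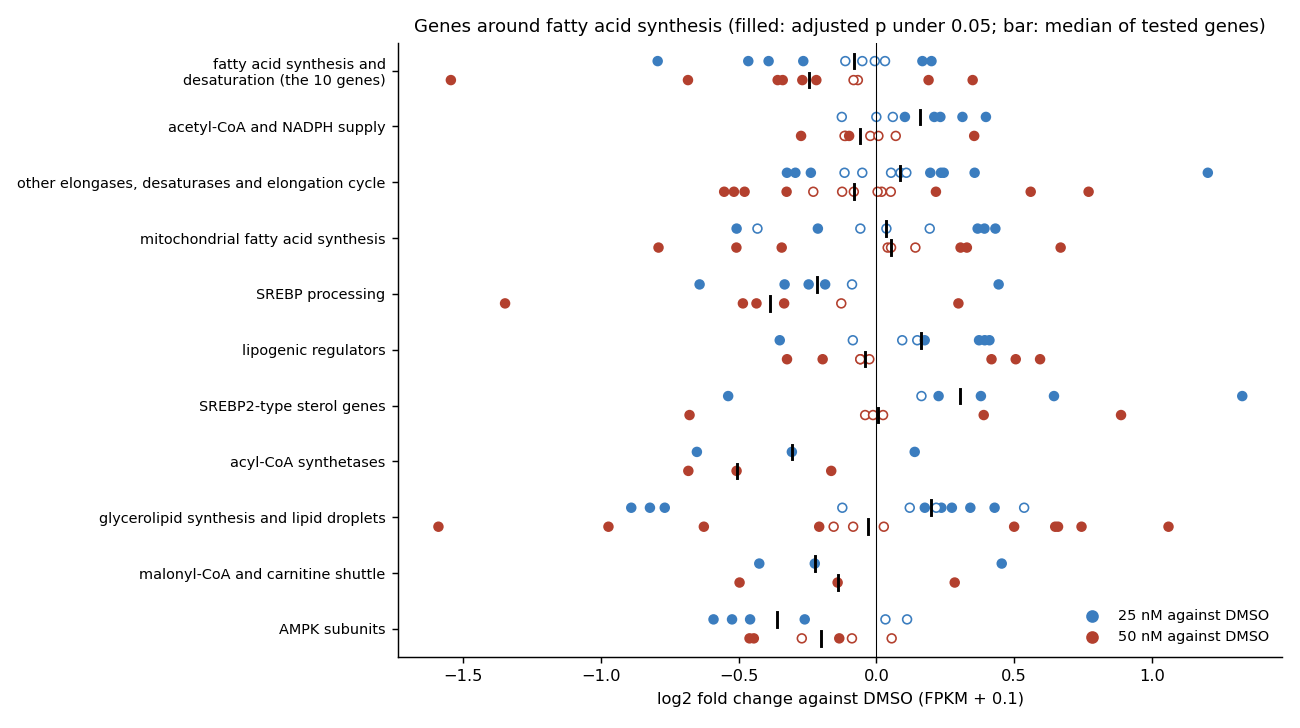
Log2 fold change against DMSO (horizontal axis, log2(FPKM + 0.1) scale) of every tested gene in the 10 members and in each pathway list (rows), at 25 nM (upper points of a row) and 50 nM (lower points); filled points passed an adjusted p of 0.05 in limma and vertical bars are medians over the tested genes. Medians lie below 0 at both doses for SREBP processing (-0.22 and -0.38), AMPK subunits (-0.36 and -0.20) and acyl-CoA synthetases (-0.31 and -0.51). The same holds for the malonyl-CoA and carnitine shuttle list (-0.22 and -0.14) and for the 10 members (-0.08 and -0.24). In the remaining lists the 25 nM median is above 0.

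Other genes with patterns like those of SCD, FASN and SREBF1 were ranked by the root mean square difference over the 9 libraries between log2 deviations from the DMSO mean, among 6761 protein-coding genes outside the members with a mean of at least 5 FPKM. Nearest to SCD were TFRC, the transferrin receptor (difference 0.0843), PLOD2, a lysyl hydroxylase of collagen (0.0907), and ERRFI1, an inhibitor of EGFR signalling (0.0907). TFRC averaged 26.7 ± 0.726 FPKM in DMSO, 14.8 ± 1.73 FPKM at 25 nM and 8.40 ± 0.222 FPKM at 50 nM. Nearest to FASN were SH2B1, PEAR1 and PARP10, at 0.0426, 0.0536 and 0.0626, and nearest to SREBF1 were TUBGCP2, GPC1 and SCARB1, at 0.0329, 0.0386 and 0.0392. SCARB1, a receptor for high-density lipoprotein, had log2 fold changes of 0.18 at 25 nM and 0.22 at 50 nM. These genes were picked for their likeness, so their values are a description.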

How the data were processed

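The aligner, the counting program, the RNA selection and the strandedness are not given in the sources used here. Per the submitters' processing notes the genome was hg38. The authors deposited a table named for read counts that holds FPKM of 30673 genes, and a second with log2 FPKM, without pseudocount, of 18859 genes; their values agree to within 0.005. Deposited FPKM times gene length gave whole fragments for 100% of these genes (tolerance 0.01).

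The test was limma 3.58.1 in R 4.3.3 on log2(FPKM + 0.1), with lmFit and a robust eBayes that follows the trend of spread with level. It took in 15541 genes that reached 0.5 FPKM in 3 or more libraries, all 9 libraries, and group as the only term. P-values were adjusted by Benjamini-Hochberg over all genes tested, with a threshold of 0.05. The fit was tested on simulated data. For ratios, two-sided exact permutation tests were used (scipy 1.17.1). Alternatives were pseudocounts of 1 and 0.01, no filter, the authors' log2 table, 2 scalings, length trend removed, plain eBayes, only the 2 groups compared, a replicate block, and each library left out.

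The members and the 10 lists were chosen with earlier results of these data known. All members were named, and from each list up to 3 genes with the smallest p at 50 nM against DMSO, plus 1 of the other direction. Some genes this rule took are not reported here. For likeness, 3 genes were named for each of 3 members. Read sharing between overlapping genes was looked up in GENCODE 29.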

Additional observations from a re-analysis of the deposited data

How the results depend on the processing

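The calls of SCD in all 3 comparisons, of ELOVL6 at both doses, and of ACLY, ELOVL5, FADS1 and FASN at 50 nM against DMSO kept their direction and side of the threshold under all 19 alternatives. At 25 nM against DMSO, removing the length trend turned ACLY (0.041), ACACA (0.018), ELOVL5 (-0.0041), FADS1 (0.17), FADS2 (0.13) and MTHFD1 (0.19). Of these, only FADS1 and MTHFD1 were called. At 50 nM against DMSO the same removal turned ACACA (0.18) and ACACB (0.18). In both comparisons long genes had the lower medians, so this alternative raises them there relative to short ones. Upper quartile scaling turned ACLY (0.018) and MTHFD1 (0.023) at 25 nM, and equal fragment totals turned ACACA (0.0018) at 50 nM; none of these 3 was called. With 1 library left out, ACLY (-0.021 to 0.010) and MTHFD1 (-0.020 to 0.030) at 25 nM and SREBF1 between the doses (-0.010 to 0.084) were on either side of 0, again without calls; the cause was not tested.

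Members changed between the doses numbered 4 with no filter, 4 with only the 2 groups compared, and 4 to 8 when 1 library was left out. At 25 nM against DMSO 2 members were higher and 4 lower, and 3 and 2 with the length trend removed, or 0 and 4 with no filter or equal fragment totals; at 50 nM 2 were higher and 6 lower, and 3 and 5 with the length trend removed. Members changed numbered 4 to 6 at 25 nM and 6 to 8 at 50 nM when 1 library was left out. Genes changed between the doses numbered 5205, and 3441 to 5829 with 1 library left out, the lowest without the first 50 nM library. Scaling moved the split of calls. At 50 nM against DMSO 4540 genes were higher and 4901 lower, and 5295 and 4109 with equal fragment totals, or 5207 and 4196 with upper quartile scaling. At 50 nM against 25 nM 2288 were higher and 2917 lower, and 3153 and 1358 with equal totals, or 2615 and 2210 with upper quartile scaling. With no filter the split at 50 nM against DMSO was 5381 higher and 4774 lower.

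Libraries with the same replicate number did not deviate together (r of -0.05 to 0.08 between groups), so the number names samples only. With the replicate block 5, 8 and 6 members changed at 25 nM against DMSO, 50 nM against DMSO and 50 nM against 25 nM, and 7640, 9107 and 4587 genes; SREBF1 at 25 nM (adjusted p = 0.0659) and ELOVL6 between the doses (adjusted p = 0.0710) lost their calls.

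Of 34 genes that the rule for naming took from the lists, 31 were called at 25 nM and 33 at 50 nM. Of these, 26 and 27 were called under all 19 alternatives. Most were taken for their small p at 50 nM, and both doses share the DMSO libraries. These counts therefore follow from the choice and cannot be set against the 52% and 60.7% of all genes called. Depth limits FADS2 most, with 257 to 432 fragments per library.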
